A study of Homo sapiens with 2 samples.

Results

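The endodermal transcription factor genes HNF4A, HNF4G, FOXA1, FOXA2, FOXA3, GATA4 and GATA6 were followed across the cell types of human stem cell-derived beta cells. Members were chosen by gene symbol, and all 7 were found among the 33694 genes measured. The cells were enhanced beta clusters (eBCs) differentiated from the iSOX9KO line, 1 clone made from human embryonic stem cells of the MEL-1 line that carry an INS-GFP reporter. Cells of both groups carried a doxycycline (DOX)-inducible Cas9 in the AAVS1 locus together with guides against SOX9. One group was kept without DOX, and the other received DOX at 2 ug/ml starting on day 12 of differentiation. GFP-high live cells were sorted and reaggregated at a stage when DOX was already present, and live cells of the dissociated eBCs were sorted once more before 10X Genomics single cell RNA-seq.

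Each condition had 1 library, so no test between conditions was possible, and every interval is a 95% interval that covers counting error only. The deposited counts of unique molecular identifiers (UMIs) spanned 500 to 86243 per barcode without DOX and 500 to 96590 with DOX. After filtering, 21808 and 23118 cells were kept, with median depths of 13957.5 and 12667 UMIs, and 141 of the kept barcodes occurred in both libraries. Wherever a pair of values is given without further label, the first is from the library labelled no DOX and the second from the library labelled DOX. A level is the sum of UMIs of a gene over a group of cells per 1000000 UMIs of that group (CPM). SOX9, the gene that the guides target (ENSG00000125398, chromosome 17, 72121020 to 72126416), was measured at 3.0 and 3.78 CPM over all cells. Most of these UMIs came from the few duct-like cells described next, at 252 and 283 CPM. In the endocrine classes summed SOX9 was at 1.03 and 0.956 CPM (log2 ratio of DOX over no DOX -0.10, -0.34 to 0.14). Among these classes the direction differed. SOX9 was at 2.99 and 3.55 CPM in progenitor-like cells, but at 0.303 and 0.217 CPM in beta-like cells, and was also lower with DOX in alpha-like and delta-like cells. SOX9 was thus not clearly lower in the library labelled DOX, although an indel made by Cas9 need not lower the UMI count. An exchange of labels and indels without effect on the count cannot be told apart here, so each library is referred to by its label, and each direction between them carries this limit.

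The kept cells formed 7 clusters, of which 6 could be named from markers that did not include the members. These were 331 duct-like, 4575 delta-like, 9319 alpha-like and 16954 beta-like cells. A further 10562 cells matched beta cell progenitors and are called progenitor-like, and 860 matched proliferating progenitors and are called proliferating. Genes leading the progenitor-like cells included the markers TAC1, NPY1R, MGLL and TPH1. Their name follows the markers of the study, and whether these cells are nearer to gut endocrine cells was not tested. The remaining 2325 cells had 53.5% mitochondrial UMIs and were left unnamed. Alpha-like, delta-like, progenitor-like and beta-like cells are together the endocrine classes. Levels were 194326 CPM for INS in beta-like, 21285 CPM for GCG in alpha-like and 219342 CPM for SST in delta-like cells. FEV was at 1748 CPM in progenitor-like and SOX9 at 269 CPM in duct-like cells. INS, GCG, SST and FEV were among the markers that gave the names, so their levels do not test the names. INS was also at 134906 CPM in alpha-like and 135363 CPM in delta-like cells, above GCG in the alpha-like cells. FOXA1 and GATA6 were among the 2293 variable genes used for clustering, and the study listed HNF4G and GATA6 as markers of beta cell progenitors and GATA6 of duct-like cells in these same libraries, so their levels there are not independent evidence.

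FOXA proteins are winged-helix factors that can open closed chromatin, GATA4 and GATA6 are zinc finger factors that act beside them when endoderm and pancreas form, and HNF4A and HNF4G are nuclear receptors of liver, gut and pancreas. In the pancreas these genes act early, before endocrine cells are specified, and several stay on afterwards. HNF4A and FOXA2 are used by adult islet cells, and inherited loss of HNF4A causes a monogenic diabetes, whereas loss of GATA6 can leave the pancreas unformed. The genes belong to a network with the ONECUT factors, in which members bind at one another's promoters.

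HNF4A (ENSG00000101076, chromosome 20 from 44355699 to 44432845, plus strand; positions here are from GENCODE 44 on GRCh38) is transcribed from alternative promoters, the upstream of which is the one used in islets and the downstream the one used in liver. Counts per gene do not separate their transcripts, so the HNF4A levels are sums over both. The sequences before both starts are shown because they hold the letters of other members of the network. Each is the 250 bases upstream of a start in RefSeq (GRCh38.p14), written 5′ to 3′ on the plus strand, with motif matches in capitals. The motifs searched, on both strands, were CAAAGTCCA for HNF4, TGTTTAC for FOXA, AGATAA for GATA and ATCAAT for ONECUT factors.
HNF4A upstream promoter, chr20:44355449-44355698: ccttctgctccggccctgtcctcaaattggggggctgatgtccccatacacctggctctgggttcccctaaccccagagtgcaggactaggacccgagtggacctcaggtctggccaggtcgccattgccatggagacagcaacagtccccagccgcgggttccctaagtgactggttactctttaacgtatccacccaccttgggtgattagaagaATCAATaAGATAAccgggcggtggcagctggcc
HNF4A downstream promoter, chr20:44400989-44401238: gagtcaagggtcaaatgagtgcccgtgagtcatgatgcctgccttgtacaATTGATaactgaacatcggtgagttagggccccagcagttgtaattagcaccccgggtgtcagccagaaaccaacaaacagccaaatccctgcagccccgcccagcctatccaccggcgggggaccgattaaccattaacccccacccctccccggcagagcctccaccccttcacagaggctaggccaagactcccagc
The upstream promoter held the ONECUT letters at position -33 and the GATA letters at -26 from the start, next to each other. The downstream promoter held the ONECUT letters on the opposite strand at -200. Of 35116 promoter windows of this length, 5.58% held the ONECUT letters and 9.17% the GATA letters, so a match is a description and not a binding site.

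The promoters of FOXA1 (ENSG00000129514, chromosome 14 from 37589552 to 37596059, minus strand) and GATA6 (ENSG00000141448, chromosome 18 from 22169589 to 22202528, plus strand) are shown because both genes were high in progenitor-like cells, as described later. Neither window held any of the 4 motifs, which says only that those letters are not in these bases. The FOXA1 window lies before a RefSeq start but inside the GENCODE bounds of the gene given above, so bases before those bounds were not searched.
FOXA1 promoter, chr14:37595250-37595499, minus strand: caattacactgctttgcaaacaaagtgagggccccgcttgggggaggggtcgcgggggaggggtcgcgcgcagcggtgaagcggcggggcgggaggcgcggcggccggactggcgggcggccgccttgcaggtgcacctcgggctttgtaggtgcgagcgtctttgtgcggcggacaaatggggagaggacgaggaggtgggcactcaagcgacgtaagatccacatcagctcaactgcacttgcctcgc
GATA6 promoter, chr18:22169339-22169588, plus strand: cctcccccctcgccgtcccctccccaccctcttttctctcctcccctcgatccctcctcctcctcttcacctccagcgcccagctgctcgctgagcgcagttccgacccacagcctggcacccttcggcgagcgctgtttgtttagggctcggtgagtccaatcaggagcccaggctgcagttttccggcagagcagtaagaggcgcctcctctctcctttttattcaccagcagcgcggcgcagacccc
GATA6-AS1 starts 289 bases from the GATA6 start on the opposite strand and overlaps GATA6. HNF4A likewise overlaps HNF4A-AS1, and FOXA1 overlaps TTC6, both on opposite strands. The strand setting of the counting is not given in the sources used here, so reads from such overlaps cannot be told apart with certainty.

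HNF4A was present in every class and moderately higher in progenitor-like cells. Its levels were 19.7 CPM (18.7 to 20.8) and 18.2 CPM (17.2 to 19.4) in progenitor-like cells and 13.1 CPM (12.5 to 13.7) and 11.2 CPM (10.7 to 11.7) in beta-like cells. Alpha-like cells held HNF4A at 11.8 and 13 CPM, delta-like cells at 13.1 and 11.7 CPM and proliferating cells at 13.3 and 10.4 CPM. In the order of levels with both libraries summed, delta-like, alpha-like, beta-like and proliferating cells, as neighbours, did not differ beyond counting error. Their order changed between the libraries, with HNF4A in alpha-like over beta-like cells at log2 ratios of -0.14 (-0.26 to -0.02) and 0.21 (0.08 to 0.34). Duct-like cells were lowest for HNF4A, at 5.60 CPM (3.06 to 9.39) from 14 UMIs and 6.88 CPM (4.26 to 10.5) from 21 UMIs.

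HNF4G (ENSG00000164749, chromosome 8 from 75407914 to 75566834, plus strand), the paralogue of HNF4A, had a steeper pattern. It reached 22.9 CPM (21.7 to 24.1) and 22.1 CPM (20.9 to 23.3) in progenitor-like cells, followed by 9.41 and 7.59 CPM in proliferating cells. The other classes were all under 5 CPM, with 3.85 and 2.80 CPM in alpha-like, 2.73 and 2.54 CPM in beta-like, 2.40 and 3.28 CPM in duct-like and 1.54 and 1.33 CPM in delta-like cells. The duct-like values of HNF4G rested on 6 and 10 UMIs and could not be ranked against alpha-like or beta-like cells.

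FOXA1 was highest in progenitor-like cells and lowest in beta-like cells. Levels were 26.1 CPM (24.9 to 27.4) and 28.2 CPM (26.9 to 29.6) in progenitor-like cells, 23.2 and 19.6 CPM in proliferating cells and 17.3 and 20.4 CPM in delta-like cells. Alpha-like cells were at 12.8 and 11.5 CPM and duct-like cells at 9.99 CPM (6.47 to 14.8) and 16.1 CPM (11.9 to 21.2), a pair that could not be ranked. Beta-like cells held FOXA1 at only 2.91 CPM (2.63 to 3.22) and 3.60 CPM (3.31 to 3.91).

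FOXA2 (ENSG00000125798, chromosome 20 from 22580998 to 22585455, minus strand) is needed for endoderm and later for islet function and lay between 103 and 222 CPM in the endocrine classes. The highest FOXA2 level was in delta-like cells, at 193 CPM (189 to 198) and 222 CPM (216 to 228). Proliferating cells were at 131 and 136 CPM, progenitor-like cells at 120 and 127 CPM, beta-like cells at 114 and 129 CPM and alpha-like cells at 103 and 108 CPM. Progenitor-like and beta-like cells were neighbours in FOXA2 that did not differ beyond counting error with both libraries summed, although the log2 ratio was 0.07 (0.03 to 0.11) in the library labelled no DOX. The duct-like cells stood apart at 33.6 CPM (26.8 to 41.6) and 59.3 CPM (51.0 to 68.6).

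FOXA3 (ENSG00000170608, chromosome 19 from 45863989 to 45873797, plus strand), the FOXA gene best known from liver and gut, was highest in progenitor-like cells at 42.7 and 42.4 CPM. It was 29.0 and 29.8 CPM in alpha-like cells and between 18.7 and 23.6 CPM in all the remaining classes and libraries. Proliferating, duct-like and beta-like cells did not differ from one another in FOXA3 beyond counting error.

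GATA4 (ENSG00000136574, chromosome 8 from 11676959 to 11760002, plus strand), which acts with GATA6 in pancreatic progenitors, was highest in duct-like cells, at 20.4 CPM (15.2 to 26.8) from 51 UMIs and 41.3 CPM (34.4 to 49.2) from 126 UMIs. Elsewhere it lay within a narrow range, with 9.38 and 8.80 CPM in alpha-like, 9.04 and 10.1 CPM in proliferating, 8.22 and 8.46 CPM in beta-like, 6.58 and 7.36 CPM in progenitor-like and 5.25 and 4.81 CPM in delta-like cells. GATA6 spread much further than GATA4. It reached 60.8 CPM (51.5 to 71.2) and 69.2 CPM (60.1 to 79.1) in duct-like cells and 28.5 CPM (27.2 to 29.8) and 27.0 CPM (25.6 to 28.3) in progenitor-like cells. Intermediate GATA6 levels were found in proliferating cells, at 12.3 and 12.8 CPM, and alpha-like cells, at 9.09 and 10.2 CPM. Delta-like cells were at 2.75 and 2.82 CPM and beta-like cells at 1.56 CPM (1.35 to 1.79) and 1.15 CPM (0.989 to 1.33). All neighbours in the GATA6 order were separated beyond counting error with both libraries summed, and each library had the same order.

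**Figure D1:**
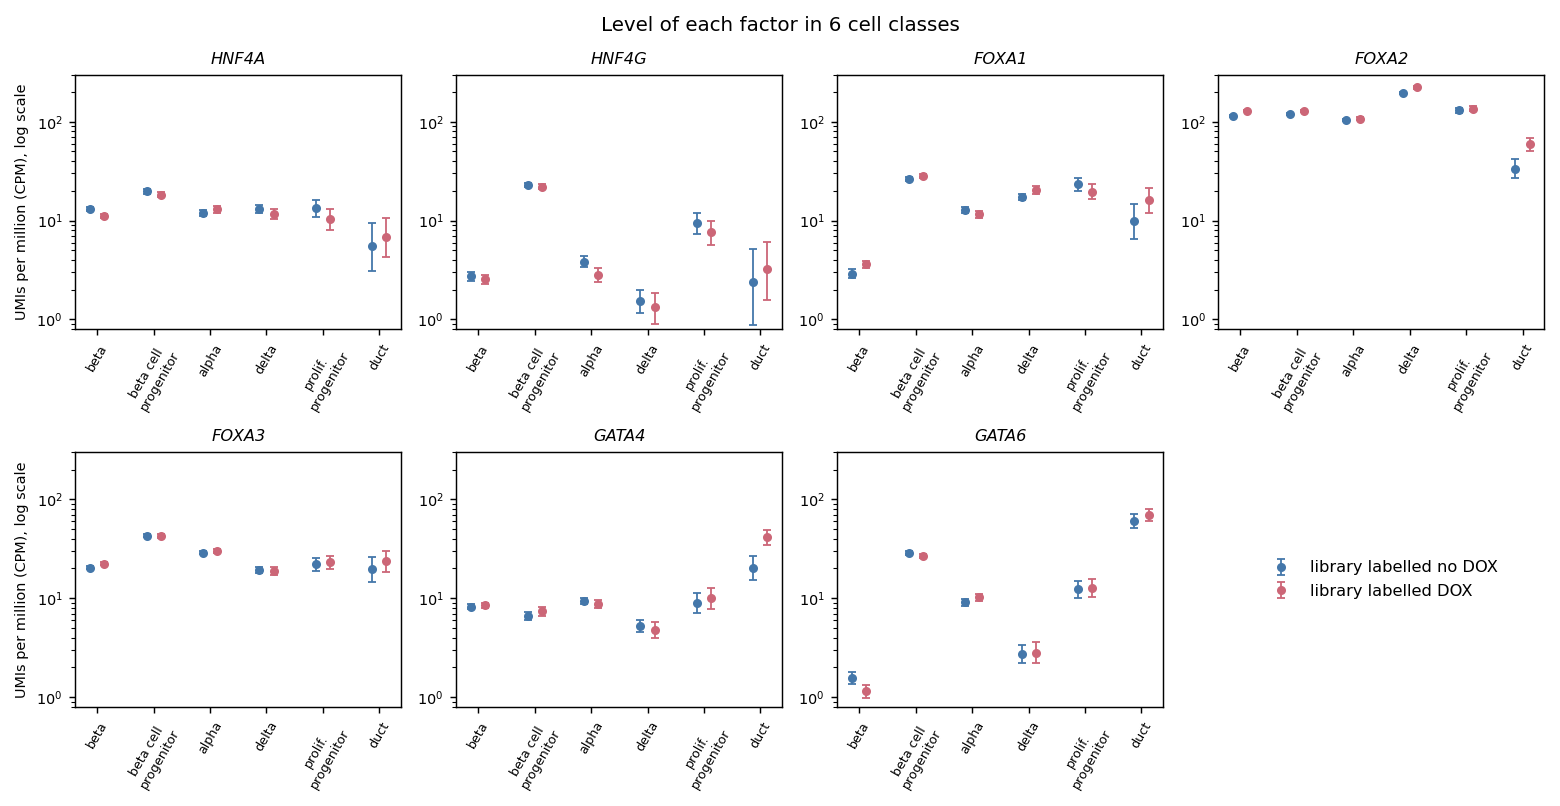
Level of each factor (CPM, log scale) in the 6 named classes, for the library labelled no DOX (blue) and labelled DOX (red), with exact Poisson 95% intervals. GATA6 runs from 1.15 CPM in beta-like to 69.2 CPM in duct-like cells, whereas FOXA2 stays between 103 and 222 CPM outside the duct-like cells.

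Progenitor-like cells, the FEV-high cells that the study placed before beta cells, were compared with beta-like cells. HNF4G, FOXA1 and GATA6 were much higher in the progenitor-like cells, FOXA3 was moderately higher, and HNF4A was close to the typical gene and FOXA2 and GATA4 were below it. GATA6 was 20.8-fold higher, a log2 ratio of 4.38 (4.22 to 4.53) with both libraries summed and of 4.19 and 4.55 in each library. HNF4G was 8.57-fold higher (log2 ratio 3.10, 2.98 to 3.22) and FOXA1 8.25-fold higher (3.04, 2.94 to 3.15), each in the same direction in both libraries. Thus 3 of the 7 members were past a log2 ratio of 1 upward and 0 downward, where 26.5% of the 10988 genes with at least 5 CPM in 1 of the classes were past it upward and 3.83% downward.

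The comparison was shifted as a whole, with a median log2 ratio of 0.59 over all genes. INS took 194326 CPM of beta-like and 66012 CPM of progenitor-like cells, and with hormone and mitochondrial genes left out of the totals the HNF4A ratio fell from 0.66 to 0.46. Relative to the median gene, the log2 ratios were 3.79 for GATA6, 2.51 for HNF4G and 2.46 for FOXA1, and these genes exceeded 99.2%, 97.9% and 97.8% of all genes. FOXA3, with a log2 ratio of 0.99 (0.94 to 1.05), was 0.41 above the median gene. The HNF4A ratio of 0.66 (0.58 to 0.73) was that of a typical gene, 0.07 above the median. FOXA2 had a ratio of 0.01 (-0.02 to 0.04) and GATA4 of -0.27 (-0.38 to -0.15), and relative to the median gene these were -0.58 and -0.85. The paralogues of each family thus differed in their ratios, FOXA1 from FOXA2 and GATA6 from GATA4, with intervals far apart.

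**Figure D2:**
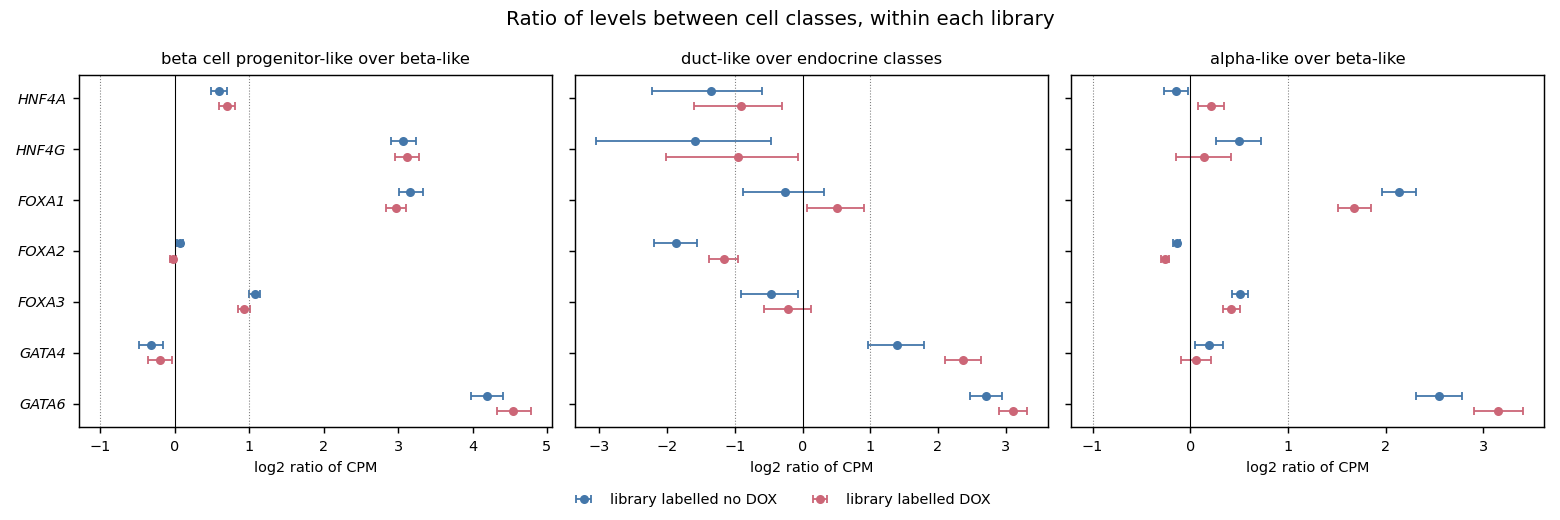
Log2 ratio of CPM of each factor between classes in each library, with exact conditional binomial 95% intervals and dotted lines at log2 ratios of -1 and 1. GATA6, HNF4G and FOXA1 lie beyond 2.9 in both libraries for progenitor-like over beta-like cells, and GATA4 and GATA6 lie above 1 for duct-like over endocrine cells.

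Duct-like cells were set against the 4 endocrine classes together. GATA factors were higher there and HNF4 factors and FOXA2 lower. GATA6 was 7.54-fold higher, with a log2 ratio of 2.91 (2.76 to 3.07), and GATA4 4.04-fold higher, with 2.02 (1.79 to 2.23). FOXA2 had a log2 ratio of -1.41 (-1.59 to -1.24), HNF4G of -1.24 (-2.05 to -0.54) and HNF4A of -1.11 (-1.63 to -0.63). FOXA1 had a ratio of 0.20 (-0.15 to 0.53), which was -0.26 and 0.51 in each library, and FOXA3 one of -0.32 (-0.59 to -0.06). Past a log2 ratio of 1 there were 2 members upward and 3 downward, beside 20.3% and 17.1% of 11707 genes. So wide a background means that being past this size was common in the duct-like cells. With doublets kept the downward count was 0, and in the library labelled DOX alone it was 1.

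The duct-like cells also held other markers at low levels. Of 5 acinar markers 2 were at 5 CPM or more, with the list summing to 42.8 and 49.2 CPM against 3.23 and 3.88 CPM in the endocrine classes, and CTRB1 was at 0 in the library labelled no DOX. Of 4 pluripotency markers 1 was at 5 CPM or more, with sums of 36.0 and 22.0 CPM against 0.566 and 0.592 CPM, while POU5F1 was at 0 in both libraries. The 6 mesenchyme markers summed to 19.6 and 13.8 CPM against 9.09 and 10.7 CPM with DCN at 0 in both, and the 3 endothelial markers PECAM1, CDH5 and KDR were at 0. The 2 immune markers summed to 3.20 and 4.92 CPM against 20.3 and 19.4 CPM, and the 4 gut markers to 45.2 and 96.7 CPM against 152 and 154 CPM. In the progenitor-like cells the gut markers summed to 230 and 229 CPM, with 3 of 4 at 5 CPM or more and CDX1 at 0. The immune markers PTPRC and CD68 summed there to 55.4 and 54.0 CPM against 15.9 and 14.3 CPM in beta-like cells, with PTPRC at 0 in the library labelled no DOX. The part of these cells in the levels of the members was not tested.

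Both alpha-like and delta-like cells had more FOXA1 and GATA6 than beta-like cells. In alpha-like over beta-like cells the log2 ratio was 2.84 (2.67 to 3.01) for GATA6 and 1.90 (1.78 to 2.02) for FOXA1, followed by 0.46 for FOXA3, 0.13 for GATA4, 0.03 for HNF4A and -0.21 for FOXA2. HNF4G was under 5 CPM in both classes, with a ratio of 0.37 (0.19 to 0.54). Of the other 6 members 2 were past a log2 ratio of 1 upward and 0 downward, beside 6.16% and 5.30% of 10365 genes. In delta-like over beta-like cells FOXA1 had a log2 ratio of 2.50 (2.37 to 2.62) and FOXA2 of 0.75 (0.72 to 0.78). The GATA6 ratio was 1.05 (0.78 to 1.32) and the HNF4G ratio -0.85 (-1.19 to -0.53), both at levels under 5 CPM. GATA4 was lower in delta-like cells at -0.72 (-0.90 to -0.55), while HNF4A (0.06) and FOXA3 (-0.17) differed little. There 1 of 5 members was past a log2 ratio of 1 upward and 0 downward, beside 4.99% and 5.96% of 10305 genes. With hormone and mitochondrial genes left out of the totals, the ratio of every remaining gene rose by the same amount. FOXA1 went to 2.82, FOXA2 to 1.06 and HNF4A to 0.38, and the upward count to 2. The share of all genes past a log2 ratio of 1 under that setting was not computed. SST took 219342 CPM of the delta-like cells.

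Proliferating cells, defined by cell cycle genes, were compared with progenitor-like cells. HNF4G and GATA6 were lower, with log2 ratios of -1.39 (-1.66 to -1.13) and -1.15 (-1.37 to -0.93), and FOXA3 followed at -0.91 and HNF4A at -0.67. These were the 2 of 7 members past a log2 ratio of 1 downward, none upward, beside 9.80% and 10.7% of 11495 genes. The median gene was at -0.23, and relative to it HNF4G alone was past that size, at -1.16. FOXA1 at -0.33 and FOXA2 at 0.11 were closer between these classes, and GATA4 was at 0.46.

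The beta-like cells were not uniform for GATA4, FOXA1, HNF4G, HNF4A and, by a smaller ratio, FOXA2. At a finer resolution they held a Beta-1-like cluster of 10825 cells, a Beta-2-like cluster of 5821 cells and an unnamed cluster of 968 cells. The Beta-1-like and Beta-2-like names follow markers that the study gave for its beta cell populations. GATA4 was higher in Beta-1-like cells, at 10.9 CPM (10.1 to 11.6) and 10.8 CPM (10.2 to 11.5) against 3.73 CPM (3.23 to 4.30) and 3.36 CPM (2.88 to 3.90) in Beta-2-like cells. In the Beta-2-like cluster GATA6 was at 5.42 and 3.86 CPM against 1.19 and 1.08 CPM in the Beta-1-like cluster, but 81.8% of the Beta-2-like cells had been in the beta-like class of the coarser clustering, and most GATA6 UMIs came from the other cells. Those 579 and 482 cells held GATA6 at 17.0 CPM (14.6 to 19.5) and 19.3 CPM (16.4 to 22.6). Among Beta-2-like cells of the beta-like class GATA6 was at 2.29 CPM (1.85 to 2.80) and 1.03 CPM (0.750 to 1.38), against 1.15 and 1.08 CPM for Beta-1-like cells of that class. GATA6 was thus higher in Beta-2-like cells without DOX, by label, and did not differ beyond counting error with DOX. GATA4 kept its difference within the beta-like class, at 10.8 and 10.8 CPM against 3.63 and 3.24 CPM. Within that class, FOXA1 was at 2.33 and 3.19 CPM in Beta-1-like against 4.43 and 4.87 CPM in Beta-2-like cells, and HNF4G at 2.27 and 2.12 against 3.80 and 3.29 CPM, with intervals apart in each library. FOXA2 was there at 110 and 125 CPM in Beta-1-like against 125 and 138 CPM in Beta-2-like cells, also with intervals apart. Between Beta-1-like and Beta-2-like cells, HNF4A (12.3 against 7.77 CPM) and FOXA3 (21.2 against 24.4 CPM) were apart only in the library labelled DOX. In the unnamed cluster HNF4A was at 16.2 CPM (14.1 to 18.4) and 15.1 CPM (12.8 to 17.7). Beta-2-like cells of the beta-like class were at 12.0 CPM (10.9 to 13.1) and 7.77 CPM (6.96 to 8.64), apart from it in each library. The split by class was chosen after seeing the data.

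The progenitor-like cells split as well, and most of the 10562 fell into clusters of 8085 and 1286 cells with INS at 57407 and 20273 CPM. The others lay in other fine clusters, so no trend with INS over the whole class is read from this pair. FOXA1 and GATA6 were lower in the smaller cluster with less INS, with intervals apart in each library. HNF4A was apart in the library labelled no DOX and overlapped in that labelled DOX, and HNF4G, FOXA2, FOXA3 and GATA4 overlapped in each library. The levels went from 31.0 to 21.0 CPM for FOXA1, 30.6 to 23.3 CPM for GATA6, 25 to 21.8 CPM for HNF4G and 20.6 to 15.8 CPM for HNF4A, both libraries summed. A cluster of 251 cells, 202 of them from the library labelled no DOX, had the highest FOXA1 of all clusters at 56.4 and 51.6 CPM. It was led by LYZ, CTGF and CCK, genes named after their values were seen, and stayed unnamed. The FOXA1 value with DOX rested on 22 UMIs in 49 cells (32.3 to 78.1 CPM) and overlapped that of the larger progenitor-like cluster. FOXA2 was also high there, at 166 and 213 CPM. GATA6 was at 5.18 CPM (2.48 to 9.52) from 10 UMIs and 7.03 CPM (1.45 to 20.6) from 3 UMIs. GATA6 was thus below both progenitor-like clusters without DOX, but with DOX its interval overlapped that of the smaller one.

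**Figure D3:**
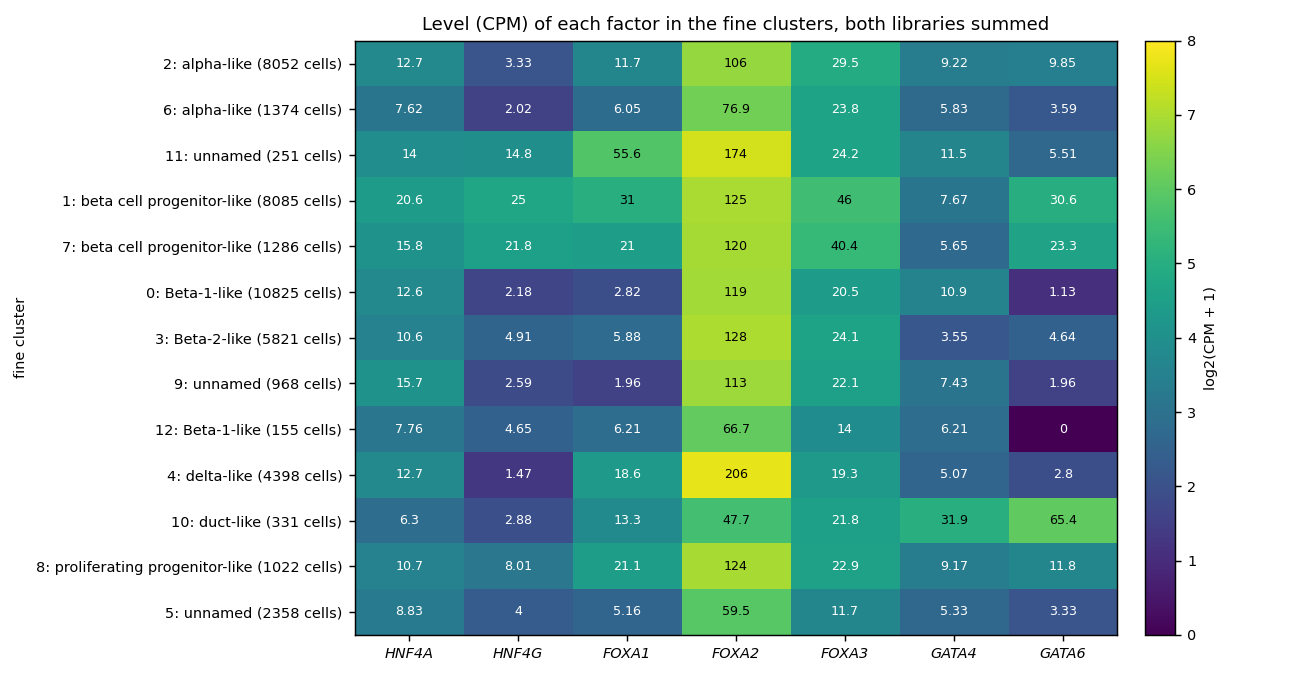
Level (CPM, printed in each cell, colour on a log2(CPM + 1) scale) of each factor in the 13 fine clusters, both libraries summed, with the number of cells. FOXA1 peaks at 55.6 CPM in unnamed cluster 11, GATA6 at 65.4 CPM in the duct-like cluster and FOXA2 at 206 CPM in the delta-like cluster.

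Shares of cells with at least 1 UMI were compared after each cell was thinned to 5000 UMIs, because beta-like cells were deeper than progenitor-like cells (medians of 18409 and 14931.5 against 11031.5 and 9573 UMIs among the cells used). Shallower cells were left out, 372 and 307 of the beta-like, 215 and 161 of the progenitor-like, 619 and 492 of the alpha-like, 199 and 113 of the delta-like, 33 and 24 of the proliferating and 6 and 1 of the duct-like cells. GATA6 was seen in 13.7% and 13.1% of progenitor-like, 27.2% and 30.5% of duct-like and 0.764% (0.570 to 1.00) and 0.573% (0.432 to 0.745) of beta-like cells. FOXA1 was seen in 12.9% and 13.1% of progenitor-like cells against 1.74% and 1.90% of beta-like cells, and HNF4G in 11.4% and 10.9% against 1.36% and 1.26%. For FOXA3 the shares were 20.03% and 19.1% against 9.77% and 10.8%, and for HNF4A 9.69% and 9.19% against 6.26% and 5.28%. The levels in these classes were shifted by a median log2 ratio of 0.59 over all genes, and the same shares were not computed for all genes, so no count of members is read from them.

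FOXA2 was the most widely seen in delta-like cells, with 58.9% (56.9 to 60.9) and 64.0% (61.7 to 66.2), against 41.2% and 45.4% of beta-like and 12.2% (7.42 to 18.7) and 23.2% (17.2 to 30.1) of duct-like cells. GATA4 was seen in 9.52% (5.31 to 15.5) and 18.6% (13.2 to 25.2) of duct-like cells and in 2.36% to 5.01% of the cells of every other class and library. Without thinning, GATA6 was seen in 27.1% and 24.0% of progenitor-like, 56.9% and 59.6% of duct-like and 2.61% and 1.71% of beta-like cells. At 5000 UMIs at least 1 of the 7 members was seen in 73.0% and 74.4% of progenitor-like and 53.5% and 57.5% of beta-like cells.

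**Figure D4:**
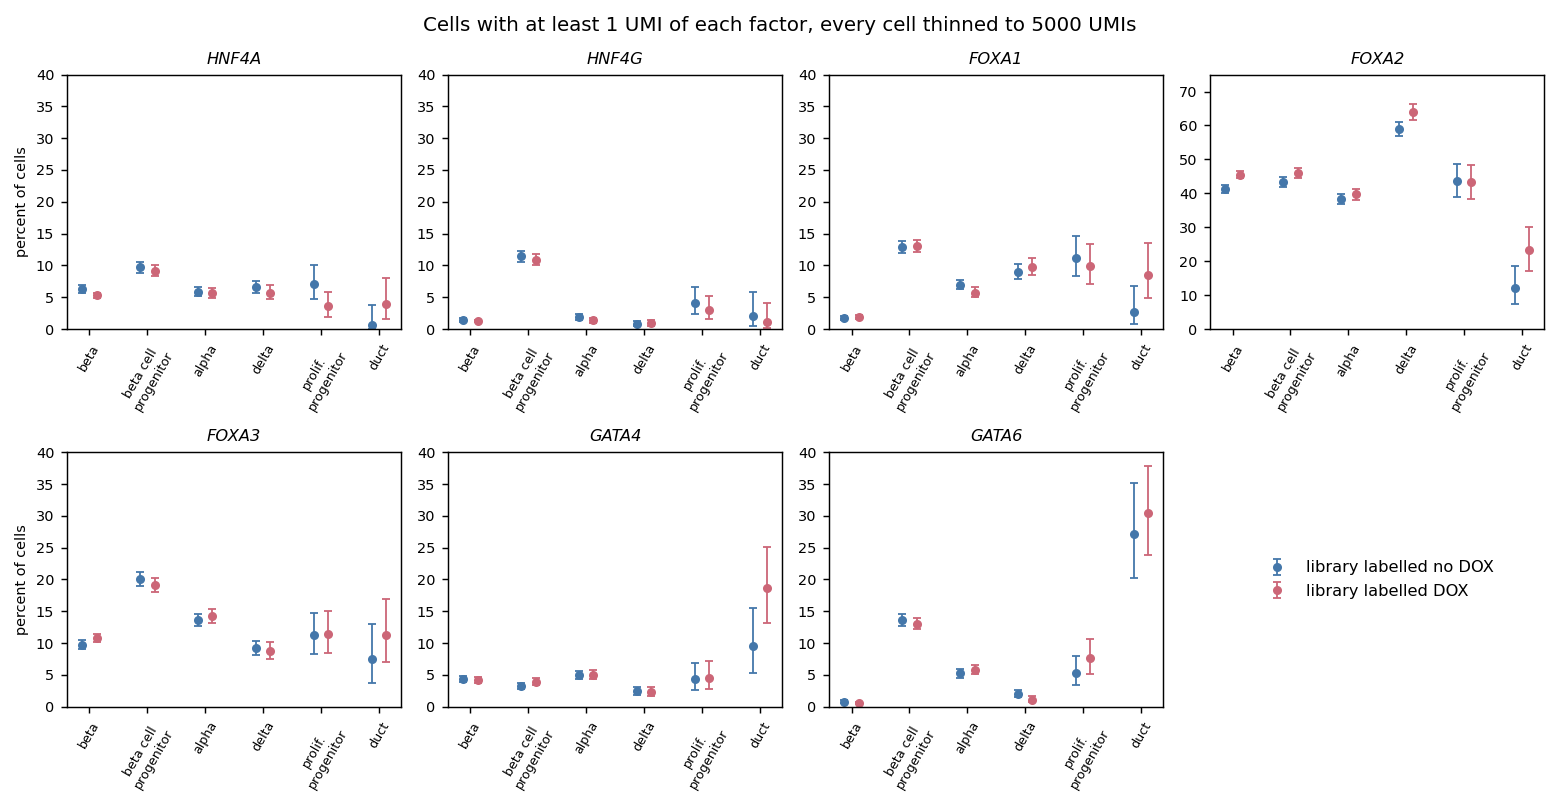
Percent of cells with at least 1 UMI of each factor after thinning each cell to 5000 UMIs, by class and library, with exact Clopper-Pearson 95% intervals (the FOXA2 axis has its own scale). GATA6 is seen in 30.5% of duct-like cells of the library labelled DOX and in under 1% of beta-like cells of both libraries.

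Free RNA in droplets can add UMIs of genes that a cell does not express, so an upper limit was computed from the hormone genes. The hormone least present in a class, relative to all cells, caps the free RNA of any gene there if it comes from 1 mixed source. In duct-like cells SST or GCG capped it at 3.14% and 7.39% of the level over all cells, and GATA6 lay 200-fold and 107-fold over that limit. In progenitor-like cells the limits were 8.01% and 6.90%, and GATA6 exceeded its limit 36.6-fold and 44.8-fold, HNF4G 39.6-fold and 50.6-fold and FOXA1 26.9-fold and 35.6-fold. Beta-like GATA6 was only 2.22-fold and 2.07-fold over its limit, so its low level there is near what free RNA could give. For alpha-like cells the limit was loose, at 42.9% and 65.2%, and HNF4G was 1.24-fold and 0.68-fold its limit, so HNF4G in alpha-like cells could not be set apart from free RNA. All 7 members in alpha-like cells of the library labelled DOX were under 2 times their limit, up to 1.80 for GATA6, with FOXA1 at 1.54. In the library labelled no DOX, alpha-like GATA6 was at 2.18 and FOXA1 at 2.46 times. Proliferating cells had limits of 62.9% and 54.7%, with HNF4A at 1.498 and 1.49, FOXA3 at 1.32 and 1.56 and FOXA2 at 1.72 and 1.89 times their limits. The part of free RNA in these alpha-like and proliferating levels was not tested further. Of 84 values of a member in a class and library, 67 were at least 2 times their limit, and all of the others were in alpha-like and proliferating cells.

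Between the libraries the members moved little. Over all cells kept, the log2 ratio of DOX over no DOX libraries, named by label, was -0.19 (-0.28 to -0.10) for HNF4G, -0.15 (-0.23 to -0.08) for GATA6, -0.14 (-0.20 to -0.08) for HNF4A and -0.08 (-0.15 to -0.01) for FOXA1. It was 0.11 (0.09 to 0.14) for FOXA2, 0.09 (0.01 to 0.17) for GATA4 and 0.02 (-0.02 to 0.06) for FOXA3. None of the 7 members was past 0.5 in either direction, beside 0.402% of 10444 genes upward and 0.622% downward, and the median gene was at -0.01. Without replicates, these intervals do not include the spread between differentiations.

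The mix of cells differed between the libraries, with 7045 and 9909 beta-like, 5117 and 4202 alpha-like and 2640 and 1935 delta-like cells, and some ratios over all cells changed within classes. FOXA1 was lower over all cells but higher within delta-like (0.24, 0.06 to 0.41) and progenitor-like cells (0.11, 0.01 to 0.21). In beta-like cells, at levels under 5 CPM, the FOXA1 ratio was 0.31 (0.12 to 0.50), and in proliferating cells it was -0.24 (-0.58 to 0.09). In alpha-like cells the FOXA1 ratio was -0.15 (-0.305 to -0.00282), and without the 134 and 22 of these cells that lay in the FOXA1-high unnamed cluster it was -0.09 (-0.24 to 0.07). Weighting every named class equally turned FOXA1 to 0.11 and GATA6 to 0.10, and moved GATA4 from 0.09 to 0.46 and FOXA2 from 0.11 to 0.17. This weighting counts the 153 and 178 duct-like cells as much as any other class. The GATA4 ratio was 1.02 in duct-like cells and between -0.12 and 0.16 in the other named classes. FOXA2 was higher in the library labelled DOX within each endocrine class, by 0.20 in delta-like, 0.18 in beta-like, 0.09 in progenitor-like and 0.06 in alpha-like cells. HNF4A was lower by a ratio of -0.22 (-0.32 to -0.12) in beta-like cells, mostly in the Beta-2-like cluster, where it was at 12.6 CPM (11.7 to 13.6) and 8.59 CPM (7.81 to 9.43) with a ratio of -0.56 (-0.73 to -0.38). In the Beta-1-like cluster the HNF4A ratio was -0.09 (-0.21 to 0.04), and in the beta-like class without the Beta-2-like cluster -0.11 (-0.22 to -0.000992). It had 0.13 (-0.01 to 0.28) in alpha-like cells. GATA6 in beta-like cells (-0.44, -0.73 to -0.14) and HNF4G in alpha-like cells (-0.46, -0.76 to -0.16) had wider gaps at levels under 5 CPM, and without the Beta-2-like cluster the beta-like GATA6 ratio was -0.0359 (-0.41 to 0.34).

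Among members at 5 CPM or more in the 6 named classes, those past a log2 ratio of 0.5 between the libraries were all in duct-like cells. GATA4 had a ratio of 1.02 (0.54 to 1.52) and FOXA2 of 0.82 (0.44 to 1.21), while FOXA1 at 0.68 (-0.04 to 1.44), HNF4A at 0.30, FOXA3 at 0.27 and GATA6 at 0.19 (-0.12 to 0.50) had intervals that included 0. These were 3 of 6 members upward and 0 downward, beside 10.2% and 12.0% of 11018 genes in 153 and 178 cells. With doublets kept the FOXA2 ratio turned to -0.062, so it depended on how doublets were treated. Of 13 liver-type genes, listed later, 6 were past 0.5 upward and 2 downward in duct-like cells, beside 10.2% and 12.0% of all genes. Their median log2 ratio was 0.41, with AFP at 68.4 and 161 CPM and ALB at 114 and 10.8 CPM. Gut markers summed there to 45.2 and 96.7 CPM. The part of these genes in the GATA4 and FOXA2 ratios was not tested. No member at 5 CPM or more was past 0.5 in the other classes. The share of all genes past it upward and downward was 0.274% and 0.924% in beta-like, 0.537% and 0.574% in progenitor-like, 0.730% and 0.740% in alpha-like, 0.450% and 0.510% in delta-like, 2.27% and 2.58% in proliferating cells and 0.386% and 0.656% in the endocrine classes summed.

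**Figure D5:**
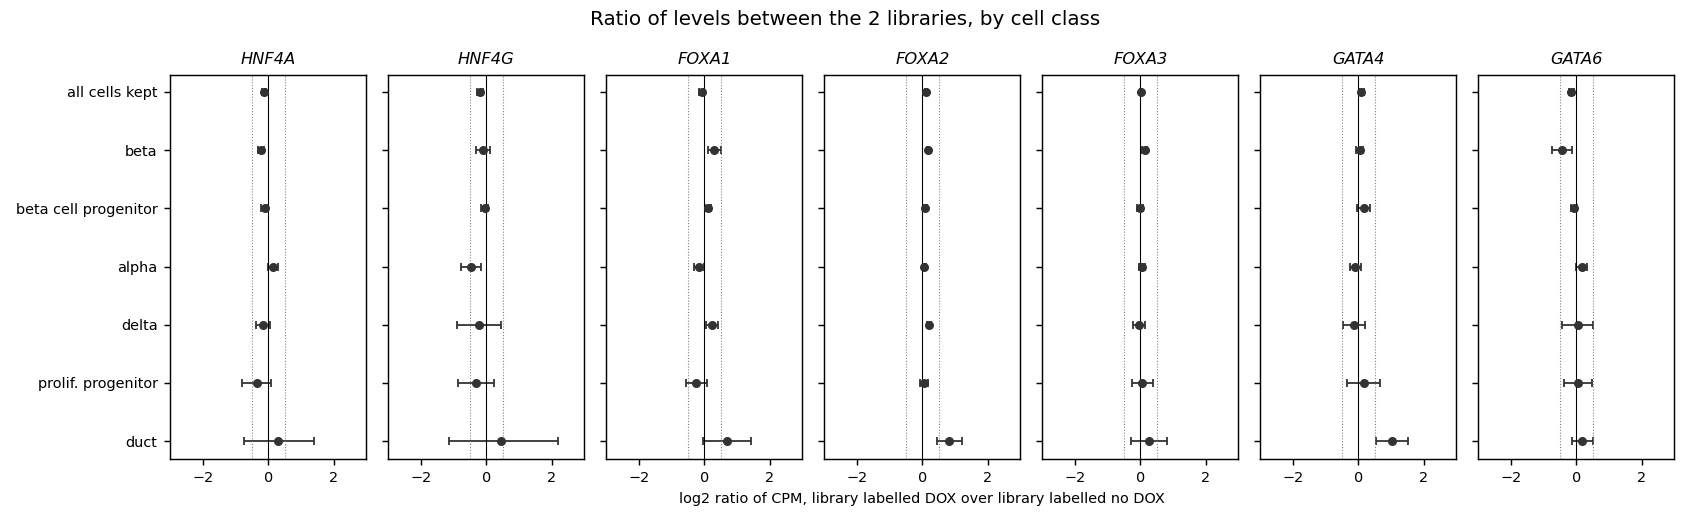
Log2 ratio of CPM of each factor, library labelled DOX over library labelled no DOX, over all cells kept and in each class, with exact conditional binomial 95% intervals and dotted lines at -0.5 and 0.5. GATA4 (1.02) and FOXA2 (0.82) in duct-like cells are the ratios whose intervals lie furthest from 0.

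Partners of these factors were followed over the same classes. The ONECUT genes encode factors that act with HNF and FOXA proteins in liver and pancreas. ONECUT2 was at 471 and 241 CPM in progenitor-like and beta-like cells (log2 ratio 0.96, 0.95 to 0.98) and at 34.4 CPM in duct-like cells. ONECUT1 was at 19.99 CPM in duct-like and 0.147 CPM in the endocrine classes (log2 ratio 7.09, 6.67 to 7.51). ONECUT3 was under 5 CPM in all these classes, with 1.56 CPM in progenitor-like, 0.114 CPM in beta-like and 0.900 CPM in duct-like cells. In duct-like over endocrine cells ONECUT1 thus had the direction of GATA6, and ONECUT2, with a log2 ratio of -2.90 (-3.11 to -2.70), that of FOXA2.

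Of the 6 other GATA and FOG cofactor genes, only ZFPM1, a cofactor of GATA factors, was at 5 CPM or more in progenitor-like or beta-like cells, at 54.7 and 38.9 CPM (log2 ratio 0.49). ZFPM2, the other FOG gene, was at 5.22 CPM in duct-like cells and 0.0877 CPM in the endocrine classes. None of the early endoderm genes SOX17, EOMES, MIXL1 and GSC reached 5 CPM in any class compared. The neighbouring noncoding gene LINC00261, which starts 6813 bases from FOXA2 on the same strand, was at 49.0 CPM in duct-like and 331 CPM in the endocrine classes (log2 ratio -2.76), and had a ratio of 0.88 in delta-like over beta-like cells, the same directions as FOXA2. In progenitor-like over beta-like cells LINC00261 had a ratio of -0.28 and FOXA2 one of 0.01, both below the median gene at 0.59. LINC00261 did not follow FOXA2 between the libraries (DOX over no DOX) over all cells (-0.13), in beta-like cells (-0.10) and in progenitor-like cells (-0.28), where FOXA2 was higher. GATA6-AS1 was at 28.1 CPM in duct-like and 0.701 CPM in the endocrine classes (5.32), the direction of GATA6, while HNF4A-AS1 was near 0 throughout.

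Liver-type genes known as targets of HNF4 and FOXA factors did not follow the progenitor pattern of HNF4G, FOXA1 and GATA6. Of the 13 genes 10 were at 5 CPM or more in progenitor-like or beta-like cells, and 6 of these (AFP, AGT, APOA2, APOM, FABP1 and TTR) were past a log2 ratio of 1 downward and 0 upward, beside 3.83% and 26.5% of all genes. TTR, a thyroid hormone carrier that islets also make, was at 4750 CPM in progenitor-like and 25060 CPM in beta-like cells. In duct-like over endocrine cells 12 were compared, with 6 upward, among them SERPINA1 at 3647 against 156 CPM, and 4 downward, beside 20.3% and 17.1% of all genes. Between the libraries, over all cells, 2 of 10 were past 0.5 downward and 0 upward, beside 0.622% and 0.402% of all genes. Classes differed in this, with 4 of 11 downward and 0 upward in beta-like cells (0.924% and 0.274% of all genes) but 1 downward and 2 upward of 11 in alpha-like cells (0.740% and 0.730%). The upward genes were FABP1 (1.07) and ALB (1.19), named after their values were seen.

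Genes whose levels ran most like each member were sought over 24 points, each a fine cluster in 1 library with at least 50 cells there, among 13360 genes by Pearson correlation of log2(CPM + 1). Points share libraries, depth and cells of related type, so these are descriptions. From the 3 genes most like each member, GATA6 ran like PSMB8 (0.94), NMT2 (0.94) and HSPA4L (0.93), HNF4G like ENDOD1 (0.94), TPST2 (0.94) and RP11-686F15.2 (0.94), and FOXA1 like ATF7IP (0.94), PIAS4 (0.93) and ASAP2 (0.91). FOXA3 ran most like SDHAF2 (0.93), SERTAD1 (0.92) and TRAPPC3 (0.91), HNF4A like RAB3D (0.87) and TPRA1 (0.86), FOXA2 like PJA2 (0.89), OSBP (0.86) and ANKRD50 (0.85), and GATA4 like B4GALT1 (0.85) and DUSP9 (0.84). Among the members themselves the highest correlation was that of HNF4A with FOXA2 (0.68), then HNF4G with FOXA3 (0.63) and with FOXA1 (0.63), while FOXA2 and GATA4 ran opposite (-0.38). By Spearman correlation, 8 of the 21 genes most like the members were found again. The order of member pairs also changed, with FOXA1 and GATA6 at 0.66 above HNF4A and FOXA2 at 0.51. FOXA2 and GATA4 were then at -0.17.

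Joint detection was compared with the product of the shares for 5 pairs of members in each class. In progenitor-like cells, HNF4G and GATA6 were seen together 1.23 times (1.00 to 1.5) and 1.14 times (0.91 to 1.41) as often as that product. FOXA1 and FOXA2 were seen together 0.90 times (0.79 to 1.01) and 0.91 times (0.81 to 1.02) as often, and HNF4A and HNF4G 1.15 and 0.99 times. In beta-like cells HNF4A and FOXA2 were seen together 1.24 times (1.08 to 1.42) and 1.06 times (0.93 to 1.21) as often. In proliferating cells HNF4G and GATA6 were seen together in 4 and 3 cells, 4.39 times (1.19 to 11.2) and 3.28 times (0.68 to 9.57) as often. Only these beta-like and proliferating intervals of the library labelled no DOX lay apart from 1. All other intervals over the pairs, classes and libraries included 1. At 5000 UMIs per cell these counts are sparse, and no order of pairs was read from them.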

How the data were processed

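The authors deposited raw UMI counts for each gene and barcode, not normalized. File headers name Cell Ranger 3.0.2. The submitters' processing notes list Cell Ranger 3.0, kallisto, bustools 0.40.0, Scanpy and Seurat on GRCh38, and the methods describe gene counts from kallisto and bustools, so these counts may differ from those the study clustered. A minimum of 1000 UMIs left 61159 of 62105 barcodes, and removal of doublets by Scrublet (scanpy 1.11.5) then left 44926. Clustering followed the methods (log-normalization, variable genes, regression on UMIs and mitochondrial share, 50 components, 3 neighbours per library, leidenalg 0.10.2 at resolution 0.2 and 0.5), with names from 12 to 14 markers per class taken from the supplement of the study. A name needed a mean log2 fold of at least 1 and 3 markers. UMIs were summed per class and library. Intervals were exact (scipy 1.17.1). Their computation was checked on sums simulated with counting error alone, so the check does not cover spread between cells or libraries. Ratios use genes with at least 5 CPM in 1 group. The genes named are the members, SOX9, the 3 genes most like each member, and fixed lists, of which some genes are not reported here. Members and lists were chosen with earlier results of these data known. With 1 library per condition, depth (315580332 and 303587687 UMIs in the cells kept, of 550240855 and 520849221 deposited) limits counting error only.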

Additional observations from a re-analysis of the deposited data

How the results depend on the processing

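No paired analysis was possible because each condition had 1 library. Under the alternatives run, 78 of 413 levels and 99 of 448 class ratios moved by more than counting error, and none of the class ratios past a log2 ratio of 1 reversed. Leaving hormone and mitochondrial genes out of the totals moved 35 of 42 levels, and another depth of thinning or none moved 159 of 168 shares of cells. A share must change with depth, so the moved shares do not bear on differences between classes. For duct-like over endocrine cells, the count of members past a log2 ratio of 1 downward went from 3 to 0 with doublets kept and to 1 in the library labelled DOX alone. For delta-like over beta-like cells the upward count went from 1 to 2 with hormone and mitochondrial genes left out of the totals. That setting shifts the ratio of every remaining gene alike. The downward count for these classes went from 0 to 1 at Leiden resolution 0.5. Relative to the median gene, the downward count for proliferating over progenitor-like cells went from 2 to 1. For DOX over no DOX libraries in duct-like cells, keeping doublets changed the upward count from 3 to 1 and the downward count from 0 to 1, and reversed FOXA2 to -0.062. With doublets kept no proliferating class was named, so its values could not be given. The causes were not tested. FOXA2 in progenitor-like over beta-like cells went from 0.01 to -0.19 with hormone and mitochondrial genes left out. Clustering without the members and lists moved 1 of 35 class ratios. By Spearman correlation 8 of the 21 most alike genes were kept. The split of fine clusters by class, the median scaling, leaving out unnamed cells and leaving out barcodes shared by both libraries were chosen after seeing the data. The 153 and 178 duct-like cells limit every value in that class.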
